A study of Mus musculus with 8 samples.

Results

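The genes described here are 47 genes of the G1/S transition and of DNA replication, followed in N2a, an established mouse neuroblastoma line, with and without overexpression of Nrsn2. They were listed by gene symbol and not by a cut on their values, but with earlier results of these data known. The list holds the subunits and loaders of the replicative helicase, the replication clamp and its loader, polymerases and primase, and strand-processing enzymes. It also holds enzymes of deoxynucleotide supply, and the cyclins, kinases and E2F and retinoblastoma proteins that govern entry into S phase. All 47 were found among the 55414 rows of the gene table, and 45 had enough counts to be tested. Nrsn2 encodes neurensin-2, a small membrane protein of neuronal vesicles that the submitters describe as responsive to stress.

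The study holds 8 libraries of polyA RNA, 4 from control N2a cells and 4 from N2a cells transfected transiently with an Nrsn2 overexpression construct, with collection 24 hours after transfection. What the control cells were given is not in the labels, which name no empty vector. Nor is it stated that libraries of a group are separate cultures; the p-values therefore reflect the spread among these 8 samples alone, and that spread may be technical. A transient transfection leaves cells that took up no construct in the sample, and the share that did is not given in the sources used here.

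The 8 libraries held between 15347255 and 21395096 counts. Nrsn2 lay between 6.54 and 10.6 CPM (counts scaled to a common library total) in the control libraries and between 147 and 173 CPM in the overexpression libraries, 4.23 higher on the log2 scale (SE 0.11; edgeR adjusted p = 2.89e-15). Of 10 neuroblastoma and neuronal markers, 8 were above 1 CPM in every library, among them Hand2, Isl1 and Stmn2, and Nefl and Nefm were below 1 CPM. The summed level of these 10 markers was 1350 to 1570 CPM in control and 1010 to 1090 CPM in overexpression libraries, and its part in the results below was not tested. The markers did not all move 1 way. At an edgeR adjusted p under 0.05, Hand2, Isl1, Stmn2, Gap43 and Snap25 were lower and Gata3 was higher (log2 fold change 0.48, SE 0.10). Phox2a (-0.28) and Tubb3 (0.06) did not pass. Markers of glia, fibroblasts, immune and epithelial cells summed to at most 16.9, 7.30, 2.51 and 1.40 CPM in any library. Control and overexpression libraries fell on opposite sides of the first principal component, which carried 50.2% of the variance.

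A cell prepares to copy its genome in G1. The origin recognition complex, CDC6 and CDT1 then load rings of MCM2 to MCM7 onto origins, and geminin holds CDT1 back once S phase has begun. Cyclin D with CDK4 and cyclin E with CDK2 phosphorylate the retinoblastoma protein, which releases E2F transcription factors, and many replication genes are E2F targets. At the fork, CDC45 and the GINS complex join the MCM ring to form the active helicase, replication factor C loads the sliding clamp PCNA, polymerase alpha with primase starts each strand, polymerases delta and epsilon extend it, and FEN1 with DNA ligase I joins the lagging-strand fragments. N2a is a dividing line, and these genes are known to be active in dividing cells. In bulk RNA, fewer cells in S phase and less RNA per cell cannot be told apart.

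Single members moved in both directions by small amounts, and the summed level of the set overlapped between the groups. The 47 genes together gave 4630, 4490, 4550 and 3920 CPM in control libraries 1 to 4 and 4210, 4430, 4510 and 4510 CPM in overexpression libraries 1 to 4. Their means were 4400 ± 322 and 4410 ± 144 CPM (SD, n = 4). Control library 4 was the lowest of the 8, and the mean of the other 3 controls was 4560 ± 70.4 CPM. By edgeR's quasi-likelihood test with Benjamini-Hochberg adjustment over all 15187 tested genes, at an adjusted p under 0.05, 7 members rose, 5 fell and 33 were not called. The 12 calls are 26.7% of the 45 tested members, against 35.4% of all tested genes called in either direction, 18.6% higher and 16.8% lower. Among the 6244 tested genes whose mean level lay between 16.4 and 207 CPM, the range that holds most of the members, 42.6% were called.

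Sizes were small. The log2 fold changes of the tested members ran from -0.46 to 0.46, with a median of 0.06 and a median absolute value of 0.15. Over all tested genes the median was -0.001 and the median absolute value 0.23, and over the genes of similar level the median absolute value was 0.17. No member changed by more than 1.5-fold, where 11.0% of all tested genes were called and changed by more than that. At an unadjusted p under 0.05, 19 members passed, or 42.2%, against 44.8% of all tested genes. The groups did not overlap for 7 members that were higher and 5 that were lower, against 17.2% and 15.4% of all tested genes. In the authors' deposited table the same 12 members had an adjusted p under 0.05, 13 had one under 0.1, and the sign of the fold change was that of the edgeR fit for 45 of 45 members.

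**Figure D1:**
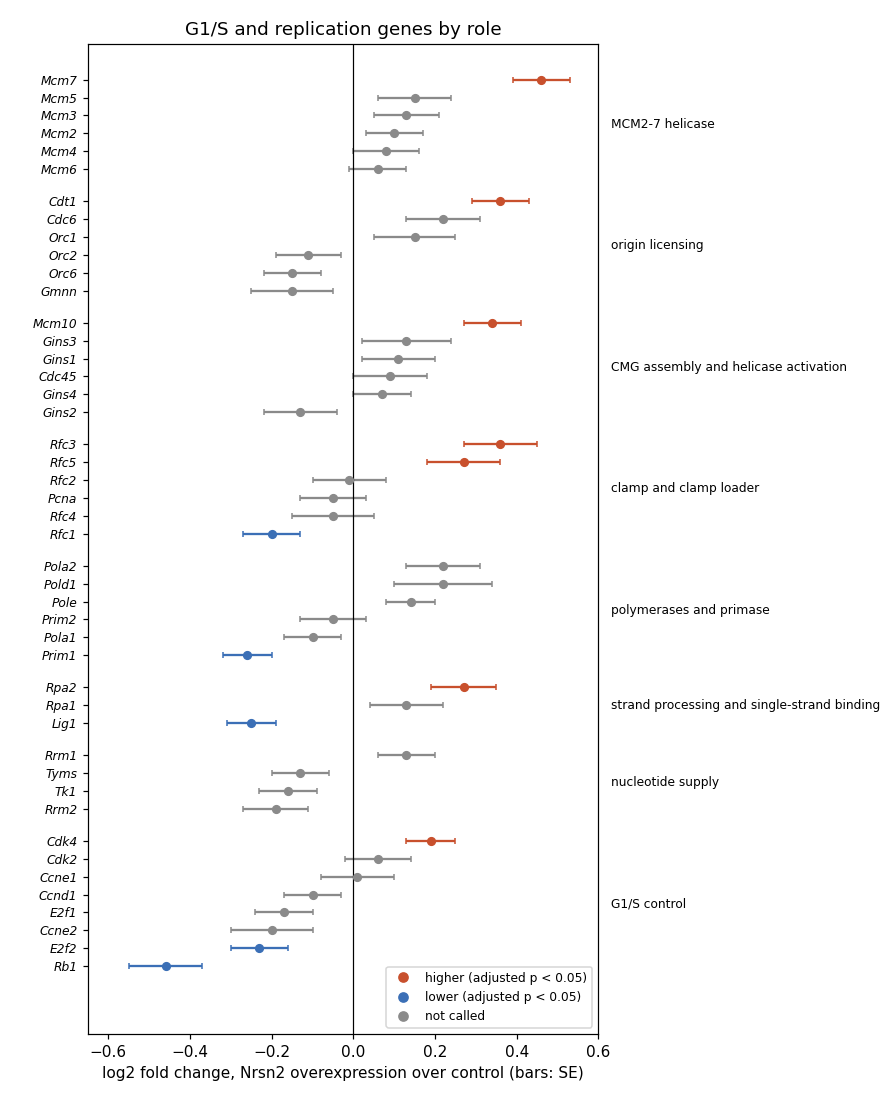
Log2 fold change of each of the 45 tested members, Nrsn2 overexpression over control (4 libraries each), grouped by role; bars are 1 SE. The 7 genes called higher and 5 called lower are spread over 7 of the 8 roles, and the other 33 lie between -0.20 and 0.22.

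The MCM2 to MCM7 ring is the motor of the replicative helicase, and its subunits act as one hexamer with 1 copy of each. Only Mcm7 among the 6 genes passed the test. Mcm7 (ENSMUSG00000029730; GRCm39 chromosome 5, 138162845 to 138170684, minus strand) was at 123, 130, 113 and 101 CPM in control libraries 1 to 4 and at 154, 163, 165 and 158 CPM in overexpression libraries 1 to 4. Every overexpression library was above every control library. The mean rose by 37.2%, from 117 ± 12.6 to 160 ± 4.94 CPM (log2 fold change 0.46, SE 0.07, edgeR adjusted p = 0.000116).

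The other 5 subunits had small positive values that did not pass, and their groups overlapped. Their log2 fold changes were 0.10 for Mcm2, 0.13 for Mcm3, 0.08 for Mcm4, 0.15 for Mcm5 and 0.06 for Mcm6, with SEs of 0.07 to 0.09. Mcm3 was at 159, 160, 154 and 135 CPM in control and at 140, 174, 175 and 175 CPM in overexpression libraries. Mcm5 showed the same arrangement, with 86.9, 90.2, 84.8 and 68.9 CPM in control and 73.6, 100, 96.2 and 97.7 CPM in overexpression libraries. In both genes control library 4 was the lowest of its group and overexpression library 1 the lowest of its own. Without overexpression library 1, Mcm3 and Mcm5 passed (log2 fold changes 0.20 and 0.25, edgeR adjusted p = 0.0202 and 0.0172).

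Relative to its partners, a comparison chosen after the values were seen and given without a test, Mcm7 moved from just under their mean to just over it. The log2 ratio of Mcm7 CPM to the geometric mean of Mcm2 to Mcm6 was -0.17, -0.06, -0.23 and -0.15 in control libraries and 0.24, 0.17, 0.22 and 0.18 in overexpression libraries. Mcm7 shares 421 bases with the oppositely oriented gene Ap4m1, which stood at 6.47 CPM in control and 10.5 CPM in overexpression libraries (log2 fold change 0.70, SE 0.12, edgeR adjusted p = 0.000192). It shares another 64 bases with Cops6, also on the other strand, at 142 CPM in control and 126 CPM in overexpression libraries (log2 fold change -0.17, SE 0.07, not called). The library kit does not mark strand, so reads from the shared bases cannot be told apart, and their part in the result for Mcm7 was not tested.

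Origin licensing genes split. Cdt1, which brings the MCM ring to the origin, rose, and none of the other 5 passed. Cdt1 (ENSMUSG00000006585; chromosome 8, 123294754 to 123300293, plus strand) was at 65.7, 74.9, 69.4 and 62.5 CPM in control and at 93.4, 87.7, 81.6 and 87.9 CPM in overexpression libraries, with no overlap. Its mean went from 68.1 ± 5.31 to 87.6 ± 4.80 CPM (log2 fold change 0.36, SE 0.07, edgeR adjusted p = 0.000609). Cdc6, the ATPase that works with CDT1, had a log2 fold change of 0.22 (SE 0.09) at an edgeR adjusted p of 0.0504, and its adjusted p was under 0.05 in 5 of 14 other settings. Its values were 49.3, 44.8, 46.5 and 35.8 CPM in control and 48.9, 54.1, 52.4 and 50.3 CPM in overexpression libraries, so the groups overlapped through control library 1. The origin recognition subunits Orc1, Orc2 and Orc6 had values of 0.15, -0.11 and -0.15.

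Gmnn, which encodes geminin, the inhibitor of CDT1, was at 38.0, 42.8, 43.4 and 31.7 CPM in control and at 31.9, 32.9, 37.3 and 38.0 CPM in overexpression libraries, a log2 fold change of -0.15 (SE 0.10) that did not pass. The log2 ratio of Cdt1 to Gmnn was 0.79, 0.81, 0.68 and 0.98 in control and 1.55, 1.41, 1.13 and 1.21 in overexpression libraries. All 4 overexpression values were above all 4 control values, and the mean ratio rose by 0.51 on the log2 scale, from 0.81 ± 0.12 to 1.33 ± 0.19. The two-sided exact permutation p was 0.0286, the smallest that the 70 arrangements of 4 and 4 libraries allow, and 0.0714 after Benjamini-Hochberg adjustment over the 5 ratios tested. Given the other ratios, no shift of this one, however large, could have had a lower adjusted p.

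The genes that turn the loaded ring into a moving helicase showed 1 call. Mcm10 (ENSMUSG00000026669; chromosome 2, 4994525 to 5017602, minus strand), an activator of the assembled helicase, was at 84.4, 79.3, 79.2 and 66.8 CPM in control and at 93.7, 104, 92.7 and 102 CPM in overexpression libraries. The groups did not overlap, and the mean went from 77.4 ± 7.47 to 98.2 ± 5.76 CPM (log2 fold change 0.34, SE 0.07, edgeR adjusted p = 0.00154). Cdc45 and the GINS genes Gins1, Gins3 and Gins4 had values of 0.09, 0.11, 0.13 and 0.07, and none passed. Gins2 was at 204, 196, 191 and 192 CPM in control libraries and at 134, 196, 184 and 199 CPM in overexpression libraries. Overexpression library 1 alone lay well below the rest, and the log2 fold change of -0.13 did not pass. Gins2 shares 25.8% of its span with Gse1 on the other strand (log2 fold change 0.65, SE 0.11).

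The 5 subunits of the clamp loader went in both directions. Rfc3 and Rfc5 rose, Rfc1 fell, and Rfc2 and Rfc4 did not pass. Rfc3 (ENSMUSG00000033970; chromosome 5, 151566221 to 151574707, minus strand) was at 37.5, 37.8, 40.7 and 29.9 CPM in control and at 46.1, 42.7, 48.9 and 49.4 CPM in overexpression libraries. Its groups did not overlap (means 36.5 ± 4.61 and 46.8 ± 3.08 CPM, log2 fold change 0.36, SE 0.09, edgeR adjusted p = 0.00417).

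Rfc5 (chromosome 5, 117516168 to 117527112, minus strand) was at 31.3, 27.8, 28.4 and 24.4 CPM in control and at 38.0, 33.4, 31.6 and 32.2 CPM in overexpression libraries. Its lowest overexpression library lay just above its highest control library (log2 fold change 0.27, SE 0.09, edgeR adjusted p = 0.0218). Rfc1, the large subunit, was at 167, 150, 150 and 137 CPM in control and at 125, 131, 139 and 130 CPM in overexpression libraries. Overexpression library 3 lay above control library 4, so the groups overlapped, and the log2 fold change was -0.20 (SE 0.07, edgeR adjusted p = 0.0236). Neither call held in every setting: Rfc5 was lost without control library 2, without control library 4 (adjusted p = 0.0789) and without overexpression library 1, and Rfc1 without control library 1 (adjusted p = 0.0895) and without overexpression library 4.

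The clamp itself did not move detectably. Pcna was at 500, 499, 503 and 401 CPM in control and at 458, 428, 482 and 465 CPM in overexpression libraries. The other 3 controls were above every overexpression library and control library 4 below them all, and the log2 fold change was -0.05 (95% interval -0.20 to 0.09). Per kilobase of exon, Pcna was the most abundant member, at 198 ± 20.9 CPM per kb in control libraries. The next were Gins4 at 69.6 ± 4.73, Prim1 at 58.9 ± 3.27 and Lig1 at 48.5 ± 0.688 CPM per kb, and the lowest tested member was Pola2 at 2.69 ± 0.236 CPM per kb. The exon length covers all annotated transcripts of a gene together, so this order depends on the annotation. Rrm1, at 284 CPM in control libraries, was at 25.8 ± 2.64 CPM per kb over 11012 bases of exon.

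**Figure D2:**
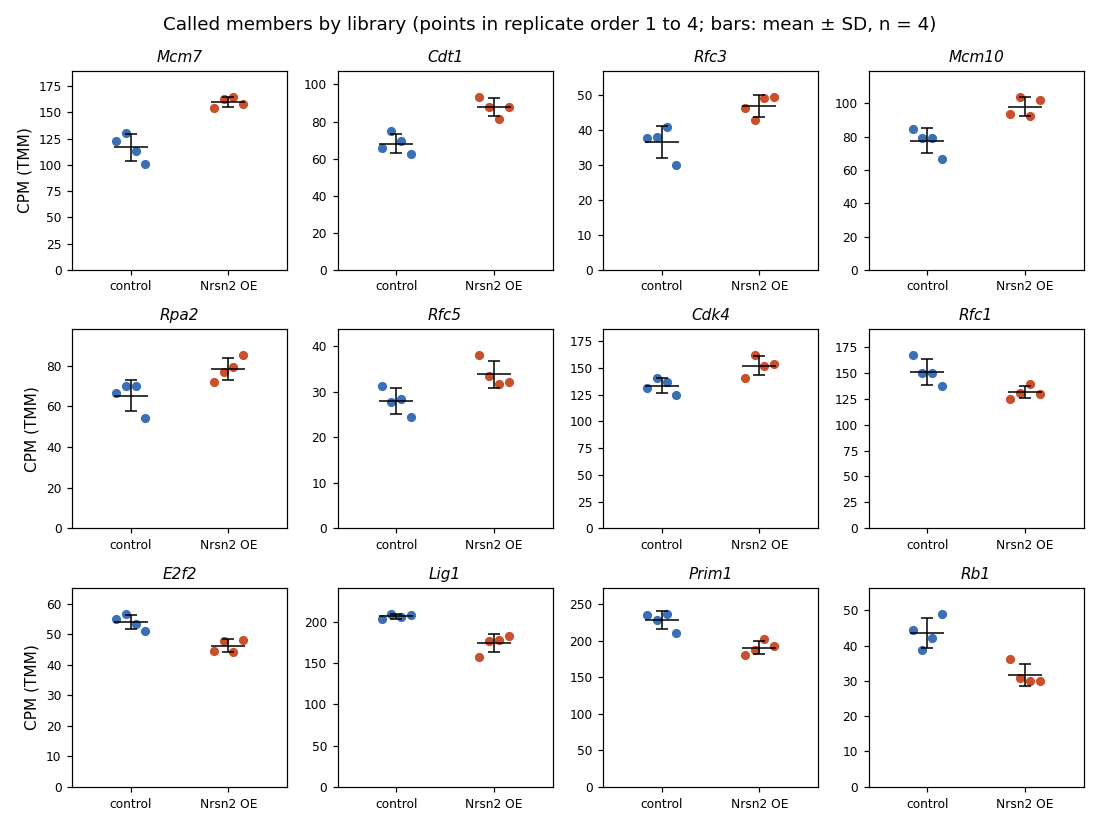
CPM in each library for the 12 members called (points; bars are the mean ± SD of 4 libraries), control and Nrsn2 overexpression, y axes from 0. In 11 of the 12 genes no overexpression library reaches into the control range; in Rfc1 the groups overlap.

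Among polymerases and primase, the catalytic primase subunit fell and the rest did not pass. Prim1 (ENSMUSG00000025395; chromosome 10, 127851037 to 127865906, plus strand), which makes the RNA primers, was at 235, 229, 237 and 210 CPM in control and at 180, 188, 202 and 193 CPM in overexpression libraries. All 4 overexpression libraries were below the lowest control, and the mean went from 228 ± 12.6 to 191 ± 9.36 CPM (log2 fold change -0.26, SE 0.06, edgeR adjusted p = 0.00408). Its partners in the primase complex had values of -0.05 for Prim2, -0.10 for Pola1 and 0.22 for Pola2. Pold1, the catalytic subunit of polymerase delta, had a value of 0.22 with an interval of -0.01 to 0.44, and Pole, that of polymerase epsilon, one of 0.14 with an interval of 0.02 to 0.26 (edgeR adjusted p = 0.159 and 0.0823).

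Lagging-strand joining and single-strand binding also gave opposite directions. Lig1 (ENSMUSG00000056394; chromosome 7, 13011239 to 13045350, plus strand), the ligase that seals Okazaki fragments, was at 203, 210, 206 and 209 CPM in control and at 158, 177, 178 and 183 CPM in overexpression libraries. The control libraries were closely spaced and stood above every overexpression library (means 207 ± 2.94 and 174 ± 11.2 CPM, log2 fold change -0.25, SE 0.06, edgeR adjusted p = 0.00393). Rpa2, a subunit of the single-strand binding protein, was at 66.5, 69.8, 70.2 and 54.1 CPM in control and at 72.1, 76.8, 79.1 and 85.1 CPM in overexpression libraries (log2 fold change 0.27, SE 0.08, edgeR adjusted p = 0.0162). That call was lost without control library 4 (log2 fold change 0.18, adjusted p = 0.0636), without overexpression library 4, and with offsets for GC content and length. Rpa1, its large partner, had a value of 0.13 that did not pass.

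Fen1, the flap endonuclease of the lagging strand, could not be tested. It had 1, 4, 0 and 2 counts in control libraries and 2, 2, 0 and 4 counts in overexpression libraries. The deposited gene model of Fen1 spans 5038 bases, of which 3253, or 64.6%, are shared with the noncoding gene Gm10143 and 156 with Tmem258, both on the other strand. How reads in shared bases were counted is not given in the sources used here, so the low count is no measure of Fen1 RNA.

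None of the 4 nucleotide supply genes passed. Ribonucleotide reductase makes deoxynucleotides from a large subunit, Rrm1, and a small one, Rrm2, whose level is known to follow S phase. Rrm1 was at 312, 285, 296 and 244 CPM in control and at 292, 313, 322 and 319 CPM in overexpression libraries (log2 fold change 0.13, edgeR adjusted p = 0.166). Rrm2 was at 145, 129, 136 and 108 CPM in control and at 115, 109, 118 and 113 CPM in overexpression libraries (log2 fold change -0.19, edgeR adjusted p = 0.0626). In both, control library 4 was the lowest of the 8.

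Among the control libraries the ratio of the subunits varied less than either gene. The log2 ratio of Rrm2 to Rrm1 was -1.10, -1.14, -1.12 and -1.17 in control and -1.35, -1.51, -1.45 and -1.50 in overexpression libraries. The means were -1.13 ± 0.03 and -1.45 ± 0.08, the groups did not overlap, and control library 4 lay with the other controls. The difference of -0.32 had a two-sided exact permutation p of 0.0286, the smallest possible, and 0.0714 after adjustment over the 5 ratios. As for Cdt1 over Gmnn, no larger shift could have lowered that adjusted p, given the other ratios. Tyms, thymidylate synthase, and Tk1, thymidine kinase, had log2 fold changes of -0.13 and -0.16 (SE 0.07 for each) and did not pass.

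**Figure D3:**
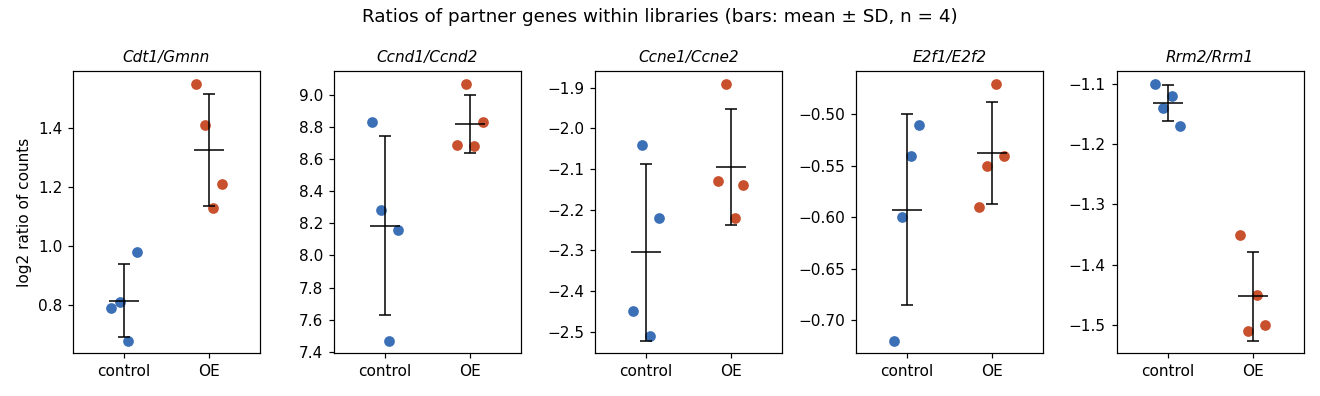
Log2 ratio of the counts of 5 pairs of members in each library (points; bars are the mean ± SD of 4 libraries), control and Nrsn2 overexpression; each panel has its own y axis, which does not start at 0. The groups separate for Cdt1 over Gmnn and for Rrm2 over Rrm1 and overlap for the other 3 pairs.

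In G1/S control, Rb1 and E2f2 fell and Cdk4 rose. Rb1 (ENSMUSG00000022105; chromosome 14, 73421113 to 73563262, minus strand) encodes the retinoblastoma protein, which represses E2F targets. It was at 44.3, 38.7, 42.2 and 49.0 CPM in control and at 36.2, 30.7, 30.0 and 29.9 CPM in overexpression libraries, with every overexpression library below every control. The mean fell from 43.6 ± 4.32 to 31.7 ± 3.02 CPM, a change of -27.3% (log2 fold change -0.46, SE 0.09, edgeR adjusted p = 0.000564). Rb1 shares 17.0% of its span with Rcbtb2 and 3.80% with Lpar6, both on the other strand. Lpar6 stood at 7.05 CPM in control and 5.22 CPM in overexpression libraries (log2 fold change -0.43, SE 0.13, edgeR adjusted p = 0.0177), and Rcbtb2 had a value of 0.11 that did not pass.

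E2f2, an activator of S-phase genes, was at 54.9, 56.7, 53.3 and 51.2 CPM in control and at 44.4, 47.9, 44.2 and 48.1 CPM in overexpression libraries, without overlap (log2 fold change -0.23, SE 0.07, edgeR adjusted p = 0.0140). E2f1, the related activator, was at 33.3, 37.4, 36.7 and 35.8 CPM in control and at 29.5, 32.6, 31.8 and 33.1 CPM in overexpression libraries. Its groups did not overlap either, by a narrow margin, but it was not called (log2 fold change -0.17, SE 0.07, edgeR adjusted p = 0.0794). The log2 ratio of E2f1 to E2f2 was -0.59 ± 0.09 in control and -0.54 ± 0.05 in overexpression libraries (two-sided exact permutation p = 0.429).

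Cdk4, the kinase partner of D-type cyclins, was at 131, 141, 137 and 125 CPM in control and at 141, 162, 152 and 154 CPM in overexpression libraries. The lowest overexpression library and the highest control were level to 3 digits (log2 fold change 0.19, SE 0.06, edgeR adjusted p = 0.0242). This was the least stable call: it was kept in 7 of 14 other settings, and its log2 fold change lay between 0.11 and 0.23 in all of them. It was lost without control library 1 or 4, without overexpression library 2, 3 or 4, without the low-count filter, and with offsets for GC content and length (adjusted p up to 0.141). Cdk2, which pairs with cyclin E, had a value of 0.06 with an interval of -0.10 to 0.22.

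No cyclin among the members was called, which leaves out the cyclins of the further lists below. Ccnd1 was the main D-type cyclin of these cells, at 188, 179, 166 and 168 CPM in control and 138, 171, 171 and 176 CPM in overexpression libraries (log2 fold change -0.10, edgeR adjusted p = 0.333). Ccnd2 had 7, 10, 14 and 12 counts in control and 6, 7, 8 and 7 in overexpression libraries, under the filter for the test. Per kilobase of exon, the control level was 37.2 ± 2.18 CPM per kb for Ccnd1 and 0.0667 ± 0.0234 CPM per kb for Ccnd2. The log2 ratio of Ccnd1 to Ccnd2 was 8.19 ± 0.56 in control and 8.82 ± 0.18 in overexpression libraries (two-sided exact permutation p = 0.114). Ccne2 exceeded Ccne1 in every library, 22.5 ± 3.68 against 5.93 ± 0.390 CPM per kb in control, and their log2 fold changes were -0.20 (SE 0.10) and 0.01 (SE 0.09). Ccne2 shares 41.9% of its span with Ints8 on the other strand, at 76.6 CPM in control and 76.7 CPM in overexpression libraries. The part of those shared bases in the values of Ccne2 was not tested. The log2 ratio of Ccne1 to Ccne2 was -2.31 ± 0.22 in control and -2.10 ± 0.14 in overexpression libraries (two-sided exact permutation p = 0.229).

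Of the 12 calls, 7 held in all 14 other settings of normalization, filter, test, block and left-out library: Mcm7, Cdt1, Mcm10, Rfc3, Prim1, Lig1 and Rb1. In these settings E2f2 was lost only without overexpression library 3. Lig1, Rfc5 and Cdk4 share 4.13%, 4.56% and 14.6% of their spans with Zswim9, Wsb2 and Tspan31 on the other strand, none of which was called, and Cdt1, Mcm10, Rfc3 and Prim1 overlap no counted gene. The 33 members that were not called cannot be said to be unaltered. Their 95% intervals, which are approximate and somewhat narrow, reached at the outermost -0.39 and 0.44 on the log2 scale.

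Single libraries weighed on the direction of the counts. Control library 4 was the lowest of the 4 controls for 34 of 45 members and the lowest of all 8 libraries for 25. Its median log2 difference from the other controls was -0.23 over the members and 0.00 over all tested genes. Overexpression library 1 was the lowest of its group for 21 members, with a median difference of -0.07. Without it, the same test called 10 members higher and 5 lower. Over all genes, 5511 were then called in either direction, against 5369 with all libraries. Shares of all genes by direction are not given for that fit, so its counts are not read as a result about the members. Cdkn1a, which encodes the cyclin-dependent kinase inhibitor p21 and was chosen after its values were seen, was at 81.8 CPM in control library 4, against 39.8 to 51.6 CPM in the other controls and 45.1 to 55.8 CPM in overexpression libraries. Its part in the low values of that library was not tested.

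Left without control library 4, the same test called 4 members higher and 11 lower, against 16.4% and 14.7% of the 15431 genes then tested. The 4 that rose were Mcm7, Cdt1, Mcm10 and Rfc3, with log2 fold changes of 0.39, 0.32, 0.27 and 0.27. The 5 that fell with all libraries fell here too, with values of -0.40 for Rb1, -0.30 for Prim1, -0.26 for E2f2, and -0.25 for both Lig1 and Rfc1. The 6 added falls were Ccne2 at -0.28, Rrm2 at -0.27, Gmnn at -0.25, Orc6 at -0.23, Tyms at -0.20 and Orc2 at -0.19, with edgeR adjusted p between 0.00467 and 0.0397. Rfc5, Rpa2 and Cdk4 were no longer called. The median log2 fold change of the members was then -0.001.

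**Figure D4:**
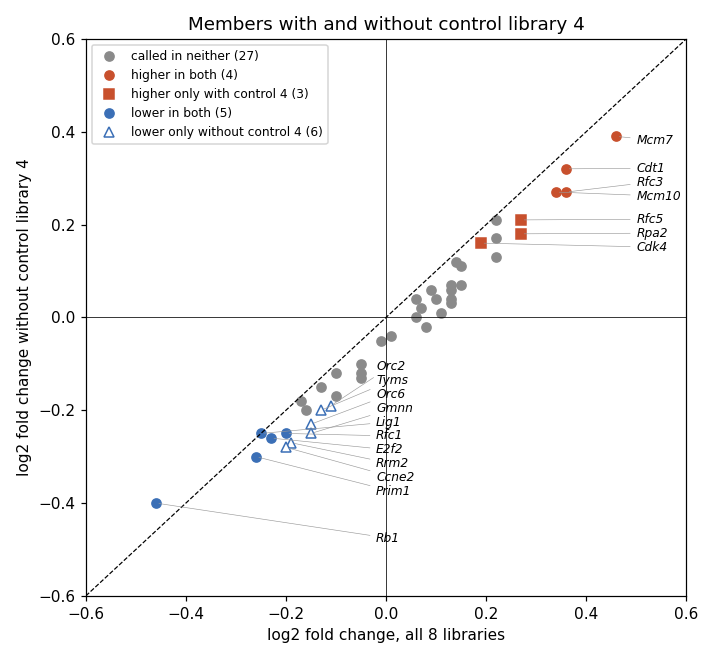
Log2 fold change of each tested member with all 8 libraries (x axis) and without control library 4 (y axis); the dashed line marks equal values. The points lie mostly below the line: 4 genes are called higher and 5 lower in both fits, 3 higher only with that library, and 6 lower only without it.

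**Figure D5:**
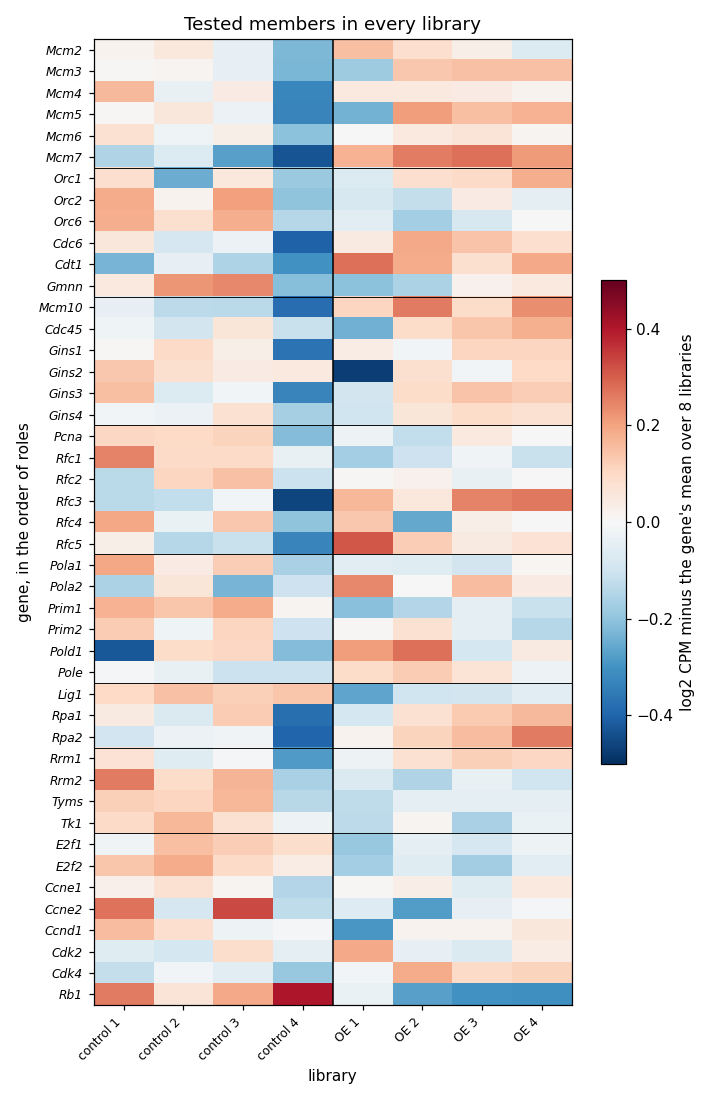
Log2 CPM of the 45 tested members in each of the 8 libraries, relative to the mean of each gene over the libraries and grouped by role. Control library 4 is the lowest of the 4 controls for 34 genes; the rows of Mcm7, Cdt1, Mcm10 and Rfc3 are higher, and those of Rb1, Prim1 and Lig1 lower, in the overexpression libraries.

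E2F-type words were more frequent in front of these genes than in front of genes in general, and the promoter sequences show which of the called genes hold one. RefSeq windows on GRCm38.p6 were at hand for 35 of the 47 members, and the 250 bases before each start were searched on both strands for the words TTTCCCGC, TTTCGCGC, TTTGCCGC and TTTGGCGC. Overlapping matches were counted separately. A word was found for 9 of 35 members, or 25.7%, against 2.16% of all 27025 genes with a window and 3.95% of the 10348 tested genes with one. It was found for 2 of 7 members called higher, 0 of 4 called lower and 7 of 23 not called. The pentamer CCAAT, on either strand, was found for 22 of 35 members, or 62.9%, against 37.5% of all genes and 41.2% of tested genes with a window. A match is a run of letters and not a shown binding site. Another window of Mcm7, at chr5:138171217-138171516, held no such word, so the word printed belongs to only 1 of its annotated starts. Mcm7 and Rfc3, both of which rose, are printed with Mcm5, Mcm6 and Orc1, which were not called, with the E2F-type words in capitals.
Mcm7 (chr5:138172021-138172068, minus strand, word 165 bases before the start): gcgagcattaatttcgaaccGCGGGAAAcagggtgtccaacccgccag
Rfc3 (chr5:151651209-151651238, minus strand, 10 bases before): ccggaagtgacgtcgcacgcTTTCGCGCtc
Mcm5 (chr8:75109336-75109387, plus strand, 153 and 149 bases before, overlapping): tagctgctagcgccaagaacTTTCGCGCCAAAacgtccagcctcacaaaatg
Mcm6 (chr1:128359725-128359835, minus strand, 110, 106 and 47 bases before, the first 2 overlapping): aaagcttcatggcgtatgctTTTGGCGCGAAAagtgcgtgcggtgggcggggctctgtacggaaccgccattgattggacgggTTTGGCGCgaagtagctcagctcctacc
Orc1 (chr4:108579407-108579453, plus strand, 27 bases before): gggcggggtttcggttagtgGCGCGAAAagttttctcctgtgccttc
Mcm6 held 3 words, more than any other member, and had a log2 fold change of 0.06. Cdt1 and Mcm10, which rose, held none of them in their windows, and neither did E2f1, Pcna and Mcm2, which were not called. Whether the words bear on the changes was not tested.

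The wider pathway was read from 5 further lists, whose counts stand against 35.4% of all tested genes called, 18.6% higher and 16.8% lower. Without control library 4 those shares were 16.4% higher and 14.7% lower. Of 39 other genes of the replication machinery, 38 were tested, and 5 rose and 2 fell, or 18.4% called. Dbf4, the activating subunit of the CDC7 kinase that fires origins, was at 114, 115, 115 and 101 CPM in control and at 151, 151, 160 and 168 CPM in overexpression libraries (log2 fold change 0.50, SE 0.06, edgeR adjusted p = 1.84e-05). Rnaseh2b, Pole3 and Uhrf1, which encode a subunit of RNase H2, a small subunit of polymerase epsilon and a factor of maintenance methylation, rose by 0.40, 0.31 and 0.24 on the log2 scale. Without control library 4 the counts were 3 higher and 6 lower.

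Among 20 other nucleotide supply genes 4 rose and 3 fell, or 35.0% called. Paics and Atic, both of purine synthesis, went opposite ways, with log2 fold changes of -0.35 (SE 0.07) and 0.35 (SE 0.08). Rrm2b, the p53-inducible small subunit of ribonucleotide reductase, fell by 0.39, and Nme1, a nucleoside diphosphate kinase, rose by 0.28. Of 31 other genes of G1/S control 29 were tested, and 3 rose and 6 fell, or 31.0% called. Lin9, a subunit of the DREAM and MuvB complexes, had a log2 fold change of 0.44 (SE 0.07), and Tfdp1, the dimer partner of E2F proteins, one of -0.28 (SE 0.06). The atypical repressors E2f7 and E2f8 moved apart, at 0.34 (SE 0.07) and -0.36 (SE 0.06). In that list, 3 fell without overexpression library 3 or 4.

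In the list of S-phase checkpoint and repair genes, 2 of 20 rose and 4 fell, or 30.0% called, and without control library 4 the counts were 1 and 7. Atrip, the partner of the ATR kinase, had a log2 fold change of 0.55 (SE 0.11), H2ax one of -0.59 (SE 0.14), the mismatch repair gene Msh6 one of -0.30 (SE 0.06) and Brca2 one of -0.28 (SE 0.07). Of 32 mitosis genes 14 rose and 3 fell, or 53.1% called, and without control library 4 the counts were 10 and 4. Plk1, Kif20a and Aurka, which act in mitosis and cytokinesis, rose by 0.50, 0.55 and 0.42. Top2a, which untangles sister chromatids, fell from 1430 ± 73.0 to 1030 ± 27.2 CPM (log2 fold change -0.47, SE 0.07, edgeR adjusted p = 3.76e-05). No test of the difference between these lists and the 47 members was made.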

How the data were processed

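RNA-seq of 8 N2a libraries was analysed from 1 deposited table. The submitters' processing notes list the build GRCm39 with HTSeq 2.01, TopHat2 2.1.1, cutadapt 2.10 and DESeq2 1.36.0; annotation release and strand setting: not given in the sources used here. The table has read counts per gene and sample, per the file headers, and the authors' comparison gives a log2 fold change with its SE and an adjusted p-value. Of 55414 rows, 6250 held no counts and were left out. Gene positions are those of the table. Counts were compared with edgeR 4.0.16 (R 4.3.3; TMM, filterByExpr at a minimum count of 10, quasi-likelihood F test, no covariate), with Benjamini-Hochberg adjustment over 15187 genes and a call at an adjusted p under 0.05. SEs come from the F statistic. The 95% intervals use that SE with a normal quantile and are narrower than the F test implies. For Orc6 the interval was -0.29 to -0.01 at an unadjusted edgeR p of 0.0502. CPM use TMM factors and are given as mean ± SD. Ratios used two-sided exact permutation tests. Exon lengths were those of GENCODE vM21 on GRCm38, matched by gene identifier, and cover the exons of all transcripts of a gene together. Promoter sequences were those of RefSeq on GRCm38.p6. The fit was also run on simulated counts with 1 dispersion for all genes and few genes altered. That run does not probe a shift as broad as the one in these data.

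Replicates differed by more than counting noise (chi-square per degree of freedom 2.41 to 13.5), so none was taken for a duplicate. Alternatives were DESeq2 size factors, no filter, a replicate block, DESeq2 1.42.0, limma 3.58.1 with voom, each library left out, offsets for GC content and length (values for 99.8% of genes), and a threshold of 0.1. The members, lists and tests were chosen with earlier results of these data known. Named genes were Nrsn2, all 47 members and, from each of 5 further lists, the 4 tested genes with the smallest p; overlapping neighbours, examples from the fixed marker lists and Cdkn1a, chosen after its values were seen, were added. Of the members, 23 overlap another counted gene, 16 of them a protein-coding one. A further 2 markers of the neuroblastoma list are not reported here.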

Additional observations from a re-analysis of the deposited data

Results flagged for a closer look

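Among the 94 sets of 4 libraries examined (47 members in each group), 7 held a library far from the other 3 by Dixon's 95% criterion, where chance gives about 1 in 20 sets. In overexpression library 1, Mcm3 was at 140 CPM against 174 to 175 in the other 3, Mcm5 at 73.6 against 96.2 to 100, Gins4 at 89.5 against 100 to 102, Tyms at 120 against 127, and Ccnd1 at 138 against 171 to 176 CPM. Rb1 was at 36.2 CPM in that library against 29.9 to 30.7. In control library 4, Pcna was at 401 CPM against 499 to 503 in the other controls. Of the 7, only Rb1 is a called gene, and its library nearest to the controls is the one that stands apart.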

How the results depend on the processing

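Over the 45 tested members and all settings, 618 values kept their direction and their side of the threshold, 28 passed only in the other setting, 16 no longer passed and 13 changed sign, all 13 in genes that were not called; the cause was not tested. With an adjusted p under 0.1, 10 of the 45 tested members were higher and 8 lower. Of all tested genes, 22.4% were then higher and 20.9% lower. At that threshold 11 other replication genes were higher and 4 lower, 4 checkpoint and repair genes were higher, and 5 mitosis genes were lower. With offsets for GC content and length, 9 other replication genes were higher, 5 checkpoint and repair genes were higher and 2 lower. Without the filter, 3 other G1/S genes were lower and 1 checkpoint gene higher, with 5423 of all genes called in either direction. By DESeq2's Wald test 1 checkpoint gene was higher, with 4927 of all genes called. Signs turned with the GC and length offsets in Gins4 (-0.02), Rfc4 (0.01), Pola1 (0.02), Prim2 (0.03), Ccne1 (-0.07) and Ccne2 (0.03). With each library left out, values reached both signs in Mcm4 (-0.02 to 0.14), Rfc2 (-0.05 to 0.04), Rfc4 (-0.12 to 0.03) and Ccne1 (-0.04 to 0.04). The same leave-one-out fits gave 4 to 10 members higher and 4 to 11 lower, a median of -0.001 (without control library 4) to 0.090 (without control library 3), 3 to 10 other replication genes higher (10 without overexpression library 1) and 0 to 6 lower (0 without control library 1 or overexpression library 2), 3 to 6 other G1/S genes lower, 1 to 3 checkpoint genes higher and 3 to 7 lower, 3 to 5 mitosis genes lower (5 without control library 1), and 4539 to 5511 of all genes called. Deviations of same-numbered libraries had correlations of -0.102, -0.0349, 0.0587 and -0.0769, against -0.101 to 0.116 for libraries of different numbers. Such values cannot tell whether the numbers mark a shared culture or day, which is not stated. A replicate block gave 8 members higher, 5 lower and 5097 genes in all. A paired exact sign-flip test of the ratios says nothing of their stability, since 4 pairs allow no p under 0.125. At 15347255 counts or more a library, Fen1 and Ccnd2 stayed too low to test.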
